A study of Mus musculus with 4 samples.

Results

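The genes described here are the nuclear-encoded genes of oxidative phosphorylation, measured in single-cell RNA libraries of mouse lung. They were chosen by gene symbol alone: names starting with Nduf and a subunit letter and digit, Uqcr, Cox4 to Cox8, Atp5 or Sdh[a-d], without pseudogene names ending in -ps. The rule took 88 of the 32285 genes in the matrices, of which 35 encode complex I subunits, 4 complex II, 8 complex III, 20 complex IV and 17 complex V. The other 4, Sdhaf1 to Sdhaf4, encode assembly factors of complex II and entered through the first letters of their names. Ndufa4 and Ndufa4l2 were counted with complex IV, where the Ndufa4 protein is known to sit. The subunit genes Ndufab1 and Cyc1 lie outside the name rule.

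The study compared lungs of Galt gene-edited mice (GAL) with wild-type lungs (WT), with 2 libraries per genotype. Galt encodes an enzyme of galactose use; the labels give no strain, age, sex, treatment or description of the edit, and they name no agent given to either group. Galt itself was at 13.3 and 10.6 CPM in GAL and 11.5 and 11.3 CPM in WT (log2 0.04 ± 0.19, adjusted p = 0.961, edgeR). The edit is not described and the counts do not show which part of the transcript they come from, so this level does not check the labels. The labels do not tie animals to libraries, so the p-values between genotypes measure only the spread between these 4 samples, which may be technical. Whole lungs were digested to single cells, so levels are those of recovered cells.

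Oxidative phosphorylation passes electrons from NADH and succinate through complexes I, II, III and IV to oxygen, and the proton gradient this builds drives ATP synthesis by complex V. Most subunits are encoded in the nucleus, while mitochondrial DNA encodes a core set for every complex but complex II. Several complex IV subunits exist as a broadly expressed form and a tissue form: Cox4i2 is known from lung and vascular mural cells and takes part in oxygen sensing, Ndufa4l2 is a hypoxia-inducible relative of Ndufa4, and Cox6a2, Cox7a1 and Cox8b are the heart and muscle forms.

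Libraries held 56218178 to 62406681 UMIs, and 10757 to 13515 cells were kept per library. Cells were assigned to 33 cell types by detected marker genes that include no gene of the oxidative phosphorylation list, and 83.6% to 89.9% of kept cells received a type. Each set of cells is called a gate, because the type rests on marker RNA and not on protein or position. Lineage genes outside the marker lists were read beside the names. Ptprc was detected in 79.4% to 90.7% of T gate cells and Epcam in 53.3% to 69.6% of alveolar type 2 gate cells. Epcam was also in 37.1% to 75.2% of alveolar macrophage, 46.3% to 64.6% of type 1 dendritic and 29.4% to 62.9% of dividing gate cells. It therefore does not set the alveolar type 2 gate apart. Ptprc was in 6.78% to 13.3% of alveolar type 2 and 92.6% to 94.6% of alveolar macrophage gate cells. Tests used the 20 gates that held 30 cells or more in each library, and the pericyte, alveolar type 2 and venous endothelial gates, with at least 10, are described beside them. Pairs of libraries shared 107 to 149 cell barcodes. WT replicate 1 had the highest summed level of the 88 genes in 16 of the 20 tested gates. The medians of the members between genotypes are therefore given with and without it. Sums, single genes and the other gene lists are compared between genotypes with it included. Levels are UMIs per 1000000 UMIs of a gate in a library (CPM), not divided by transcript length, and mean ± SD is over the 4 libraries unless a genotype is named.

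As 1 sum, the 88 genes made up 0.911% to 2.84% of the UMIs of a gate in a library, with the lowest mean in neutrophils and the highest in smooth muscle. In the neutrophil gate the sum was 0.987% and 0.911% of UMIs in the GAL libraries and 1.22% and 1.05% in the WT libraries. In the smooth muscle gate it was 2.41%, 2.59%, 2.78% and 2.38% in the same order, and the ranges of the 2 gates did not overlap. The ratio of their means was 2.435. The ciliated gate (2.47% ± 0.291), the dividing gate (2.34% ± 0.293) and the alveolar macrophage gate (2.32% ± 0.265) overlapped smooth muscle in range, and the ciliated gate was highest when cells were thinned to 1 depth or without GAL replicate 1 or WT replicate 1. Myofibroblasts (1.43% ± 0.0861), adventitial fibroblasts (1.47% ± 0.0723) and B cells (1.56% ± 0.109) were next above neutrophils; their ranges overlapped each other but not the neutrophil range.

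**Figure D1:**
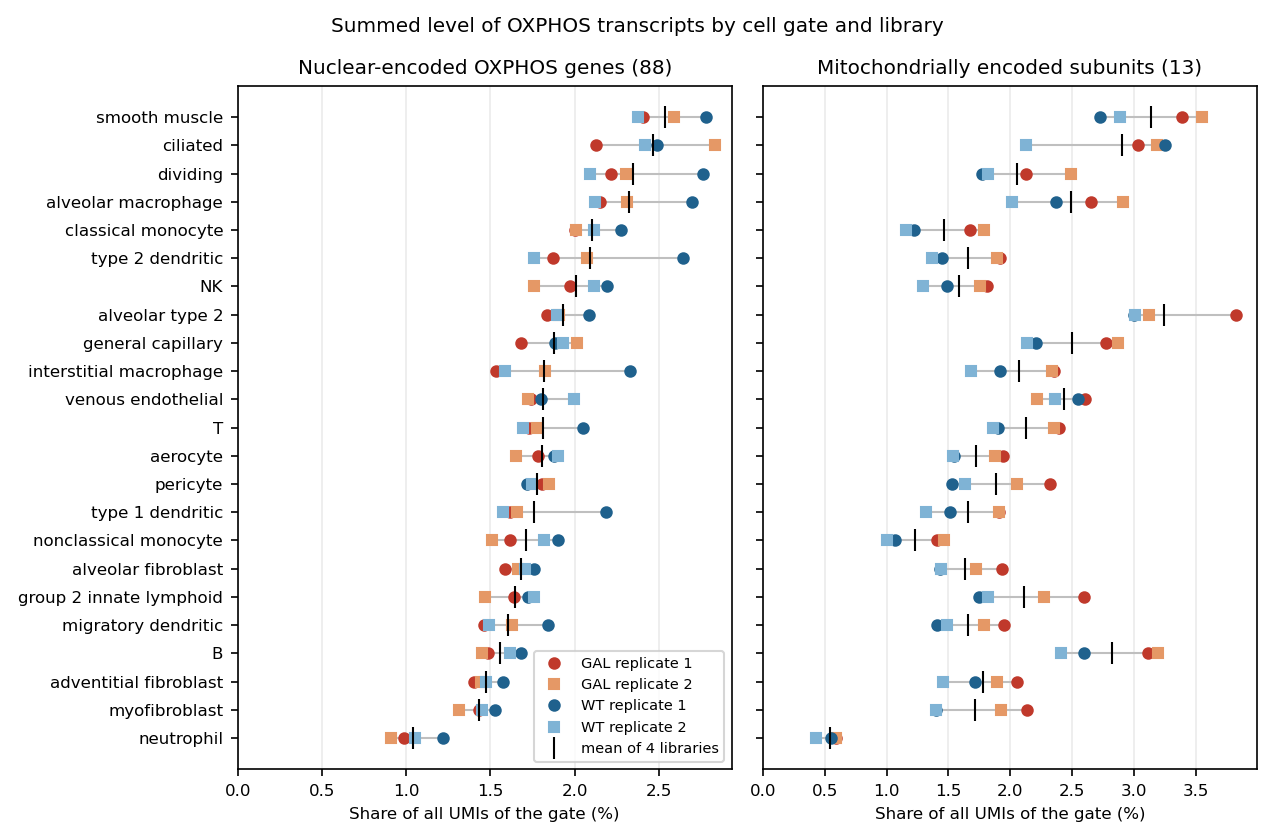
Summed share of UMIs (x axes, percent of all UMIs of a gate) of the 88 nuclear-encoded oxidative phosphorylation genes (left) and of the 13 mitochondrially encoded subunits (right) in 23 cell gates (y axis). Points are libraries, grey lines their range and black ticks the mean of 4 libraries; neutrophils lie at 0.911% to 1.22% on the left, and the GAL points lie to the right of the WT points in most gates on the right.

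For 50 of the 88 genes the lowest gate mean was in neutrophils. Ndufa11, a membrane subunit of complex I, was at 22.9, 11.2, 20.7 and 21.8 CPM in the neutrophil gate (GAL replicates 1 and 2, WT replicates 1 and 2). In the smooth muscle gate it was at 380, 376, 475 and 349 CPM, its highest gate. Ndufc2, another complex I membrane subunit, was at 22.9, 20.1, 28.9 and 11.7 CPM in neutrophils. When the share of UMIs set the scale, 73 of 84 tested members were called lower in neutrophils and 2 higher, against the mean of the other gates. On that scale 43.75% of all genes were called lower and 17.4% higher. With TMM scaling, which aligns the bulk of all genes between gates, 38 were called lower and 24 higher, and 21.8% of all 13163 tested genes were called lower. Between the 2 scalings the median of all genes moved from 0.01 to -0.95 on the log2 scale.

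Within each complex the genes differed in level, least in complex II. The highest complex I gene was Ndufa2 (324 CPM averaged over 23 gates) and the lowest Ndufs1 (26.6 CPM), the largest subunit of the electron-input arm. In complex II, Sdhb, the iron-sulfur subunit, led with 102 CPM and Sdhc, a membrane anchor, was lowest with 60.2 CPM. In complex III, Uqcrh, the hinge protein, was at 518 CPM and the core protein Uqcrc2 at 59.8 CPM. In complex V, Atp5e, the epsilon subunit, was at 692 CPM and Atp5o, a stalk subunit, at 159 CPM. In complex IV, Cox8a was at 788 CPM, while Cox8c had 0 UMIs in any library and Cox7b2 only 12. These orders compare UMIs of different genes, and they are not divided by transcript length. Among the assembly factors Sdhaf1 was highest at 33.4 CPM and Sdhaf3 lowest at 6.74 CPM.

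For 59 of the 88 genes the highest gate was at most 2 times the median gate. The lower side was wider: over the 20 tested gates the highest mean was 1.82 times the lowest for Atp5l, the smallest such ratio, 7.57 times for Atp5g3 and 10.5 times for Atp5g2. Over the 20 tested gates, the level of 63 of 87 genes followed the sum of the other members with a rank correlation of at least 0.5; the gates share libraries, depth and normalization, and no test is given. Atp5k (0.94), Ndufa2 (0.92), and Uqcrq and Cox6a1 (0.91 each) followed it most closely. The 4 genes with a negative value were Cox8b, Cox7b2, Cox4i2 and Sdhaf1. Cox7a2l, which takes part in supercomplex assembly, was near 0 at 0.08.

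**Figure D2:**
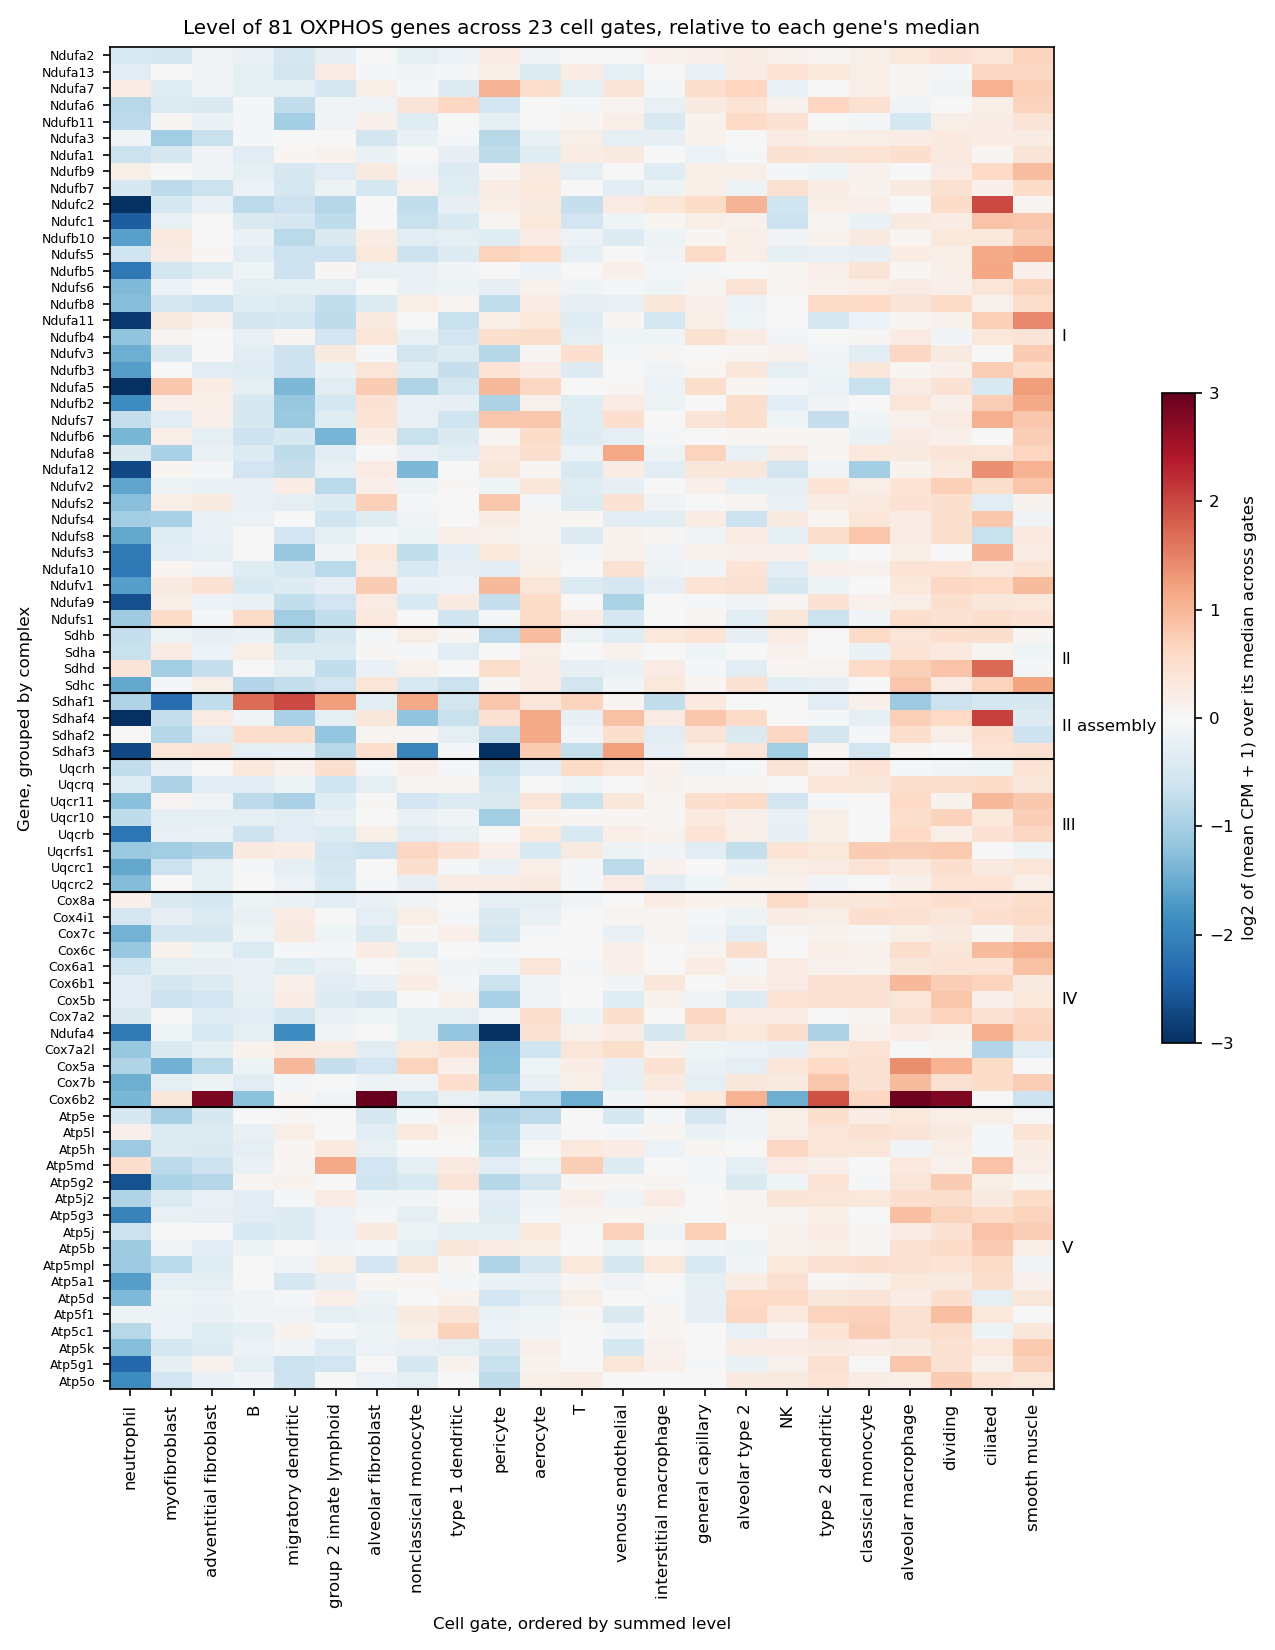
Mean level of the 81 genes with a median of at least 5 CPM across 23 gates (columns, ordered by summed level), as log2 of CPM plus 1 over the gene's median across gates; rows are genes grouped by complex, and colours stop at 3 and -3. The neutrophil column is low for most rows, Ndufa4 is low in the pericyte column, and Cox6b2 is high in 2 fibroblast gates, alveolar macrophages and dividing cells.

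Each tested gate was compared with the mean of the other 19 by edgeR, with the library as a block and adjusted p-values over 13163 genes. The units of this fit were sums per gate and library, and all gates come from the same 4 libraries. Its p-values measure the spread of these sums left after the block, and not the spread between animals. In alveolar macrophages 70 of 84 tested members were called higher and 2 lower, where 38.2% of all genes were called higher; their median was 0.39 log2 against 0.06 for all genes. With library totals as the scale it was 67 higher and 2 lower (all genes higher 36.7%). In the type 2 dendritic gate 72 were higher and 1 lower (all genes in either direction 42.6%). In classical monocytes 54 were higher (all genes 25.0%), and in smooth muscle 43 (all genes 24.1%). With library totals the numbers higher were 38 in type 2 dendritic cells, 38 in classical monocytes and 60 in smooth muscle. All genes called higher were then 17.1%, 20.9% and 29.7% in that order. Myofibroblasts had 55 members called lower (all genes 15.1%) and adventitial fibroblasts 59 (all genes 23.2%), against 32 and 40 with library totals. On that scale 8.29% and 16.8% of all genes were called lower. Leaving out GAL replicate 1 gave 36 in adventitial fibroblasts, and leaving out GAL replicate 2 gave 30.

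In further gates the sign of the member median changed with the scale. In the general capillary gate 13 members were called higher and 43 lower under TMM (all genes lower 19.5%). With library totals 36 were higher and 11 lower, where 53.6% of all genes were higher and 10.85% lower. In the alveolar fibroblast gate 11 were called higher and 45 lower under TMM (all genes lower 22.5%). With library totals 30 were higher and 25 lower, where 45.8% of all genes were higher and 13.9% lower. Between the scalings the median of all genes moved by 0.36 log2 in general capillaries (0.11 and 0.46) and by about as much in alveolar fibroblasts (0.05 and 0.35). The member median also changed sign in T cells (0.12 under TMM, -0.07 with library totals) and NK cells (-0.04 and 0.15). It did so in aerocytes (-0.24 and 0.23), type 1 dendritic cells (0.18 and -0.11) and migratory dendritic cells (0.03 and -0.35). Relative to the median of all genes, the member median kept its side under both scalings. It lay below it in general capillaries (members -0.23 under TMM and 0.13 with library totals) and alveolar fibroblasts (-0.27 and 0.02). Aerocytes were below it too (all genes 0.01 and 0.47). Type 1 dendritic (all genes -0.06 and -0.33) and migratory dendritic cells (-0.19 and -0.58) lay above it. T cells (all genes 0.16 and -0.02) and NK cells (-0.02 and 0.17) were just below it. No absolute direction of the members is given for any of these gates.

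Some genes had a gate of their own beyond these general levels. They were chosen by the ratio of their highest to their median gate, so the p-values in that gate are no further evidence. Of all genes, 33.1% were called higher in ciliated, 21.35% in migratory dendritic and 24.1% in smooth muscle cells. Ndufc2 was highest in ciliated cells, at 549, 713, 711 and 700 CPM, against a mean of 151 CPM in the other tested gates (log2 difference 2.03 ± 0.08 SE, adjusted p = 4.96e-36, edgeR). Sdhd, a membrane anchor of complex II, was at 133, 186, 217 and 209 CPM in ciliated cells and at 59.9 CPM in the other gates (1.39 ± 0.14, adjusted p = 9.27e-15). Sdhaf4, which helps to assemble succinate dehydrogenase, was at 59.1, 148, 111 and 84.3 CPM in ciliated cells and 23.8 CPM elsewhere (1.97 ± 0.20, adjusted p = 7.71e-15). All libraries of the ciliated gate lay above those means. Sdhaf1, which helps to mature the iron-sulfur subunit Sdhb, had its own order: it was highest in migratory dendritic cells, at 99.5, 79.0, 98.5 and 156 CPM (log2 difference 2.46 ± 0.18, adjusted p = 8.93e-21). B cells came next at 80.8, 74.0, 86.3 and 112 CPM, overlapping the migratory dendritic range. Ndufa11 in smooth muscle, given above, exceeded the mean of the other gates by 1.45 ± 0.11 log2 (adjusted p = 4.30e-20).

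The tissue isoforms of complex IV were concentrated in few gates. There were 5 genes with a highest gate more than 10 times their median gate: Cox4i2, Ndufa4l2, Cox6a2, Cox8b and Cox6b2. The p-values of these 5 genes in their highest gates are likewise no further evidence. The share of a tissue form in its pair is its UMIs over the UMIs of both forms in a gate and library. Exact (Clopper-Pearson) 95% intervals of these shares cover counting error only.

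Cox4i2 (chr2:152754173-152765037, GRCm38, + strand, protein-coding) was the leading form of subunit 4 in the pericyte gate, which held 51, 29, 13 and 23 cells in GAL replicates 1 and 2 and WT replicates 1 and 2. Pericytes are the contractile cells that wrap capillaries. Cox4i2 was at 2485, 2781, 1260 and 2940 CPM there, and Cox4i1 at 563, 440, 560 and 565 CPM. The share of Cox4i2 in the pair was therefore 80.2% ± 7.60, between 69.2% and 86.3%. The next gates were general capillaries at 66.0 CPM ± 46.2 and smooth muscle at 37.5 CPM ± 14.9. Of the cells of the pericyte gate, 76.9% to 96.6% held a Cox4i2 UMI at median depths of 1074 to 1959 UMIs. In T cells, which are not known to express it and were sequenced deeper (medians 2067 to 3336), 0.137% to 1.43% did, which is read here as background. Compared with all other gates Cox4i2 was called higher in pericytes (adjusted p = 4.77e-54, edgeR); its fitted fold change depends on gates without a UMI and is not given.

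Ndufa4l2 (chr10:127514967-127517154, GRCm38, + strand, protein-coding) was nearly the sole form of its pair in the same cells. It was at 985, 1215, 630 and 1093 CPM in the pericyte gate, while Ndufa4 had 6, 2, 0 and 1 UMIs. The share of Ndufa4l2 was 97.1% ± 2.23. Ndufa4 averaged 32.3 CPM in pericytes and 340 CPM over the tested gates, and was called lower there (adjusted p = 1.09e-16, edgeR; log2 difference -3.59 ± 0.32). Among 85 members tested with the small gates included, only Cox4i2 and Ndufa4l2 were called higher in pericytes, where 9.35% of all genes were; 52 were called lower, and the median of all genes was -0.60. Adventitial fibroblasts held Ndufa4l2 at a lower level, 30.8, 35.6, 19.5 and 37.8 CPM, where Cox4i2 was at 2.30 CPM. General capillaries (mean 27.81 CPM) and smooth muscle (27.65 CPM) overlapped them in Ndufa4l2, but held more Cox4i2 (66.0 and 37.5 CPM). Of the 10 genes listed beside the pair, Higd1b, a pericyte gene of the hypoxia-inducible domain family that is also a gate marker, was at 1336 CPM in pericytes. Among the hypoxia genes of that list, Vegfa was at 26.6 CPM in pericytes, 15.7 CPM in smooth muscle and 255 CPM in general capillaries. Ldha was at 44.1 CPM in pericytes and 189 CPM in smooth muscle. Egln3 and Car9 had no UMI in pericytes. In that gate 3 UMIs equal 28.1 to 210 CPM, so levels like the 12.9 CPM of Egln3 in smooth muscle could be missed. A part of hypoxia was not tested.

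**Figure D3:**
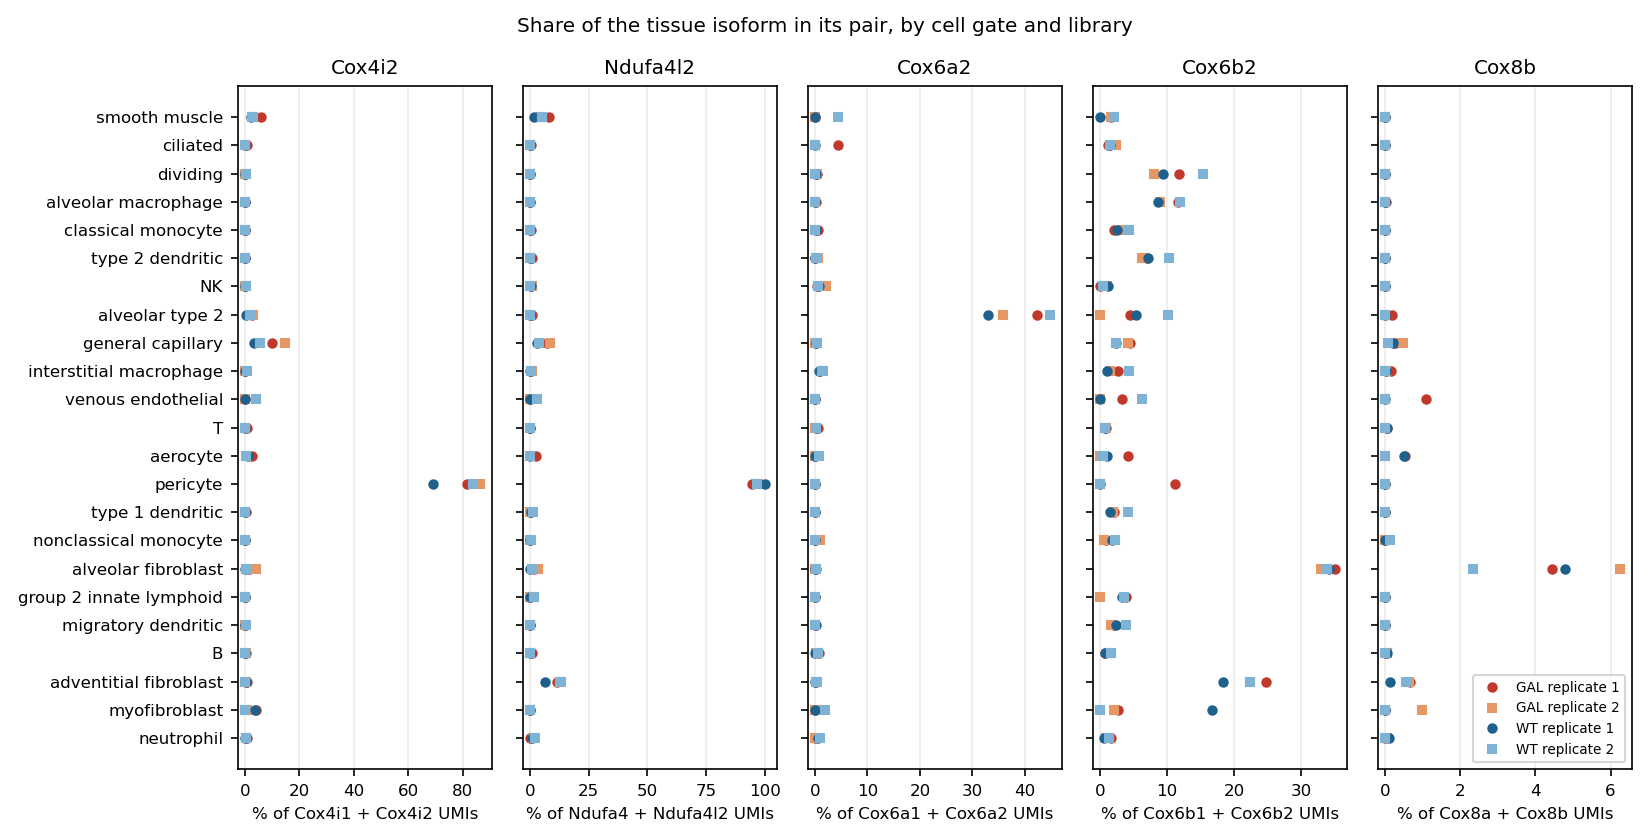
Share of the tissue form among the UMIs of its pair (x axes, percent, a scale of its own in each panel) in 23 cell gates (y axis); points are libraries. Cox4i2 and Ndufa4l2 stand out in pericytes (69.2% and more), Cox6a2 in alveolar type 2 cells, Cox6b2 in 2 fibroblast gates, and Cox8b stays below 6.26% everywhere.

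Cox6a2 (chr7:128205435-128206387, GRCm38, - strand, protein-coding), known as the heart and muscle form of subunit 6a, was found in alveolar type 2 cells, the surfactant-producing epithelium. It was at 285, 238, 217 and 287 CPM in that gate, and 71.2% of its UMIs in gated cells lay there, although the gate held 1.02% of gated cells. In the same order the gate held 301, 15, 59 and 46 cells, with 557, 24, 73 and 86 Cox6a2 UMIs. Most of these UMIs came from GAL replicate 1. Its share in the pair with Cox6a1 was 38.9% ± 5.52, and the 4 libraries lay between 32.9% and 44.8%. The difference from the other gates was called (adjusted p = 7.79e-45, edgeR), where 26.7% of all genes were called higher. A Cox6a2 UMI was seen in 47.5% to 63.0% of these cells at median depths of 6070 to 7372 UMIs, and in 0% to 0.713% of T cells. Sftpc, an abundant surfactant gene, gave a UMI in 2.15% to 70.2% of T cells, which is the background of an alveolar type 2 transcript in cells that should lack it, and was highest in GAL replicate 1. The plasmacytoid dendritic gate, with only 5, 2, 8 and 3 cells, also held Cox6a2: 56.8%, 69.8% and 78.3% of the pair in GAL replicate 1 and WT replicates 1 and 2. Neither gene had a UMI in the 2 cells of GAL replicate 2.

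Cox6b2 (chr7:4751792-4753094, GRCm38, - strand, protein-coding), known as the testis form of subunit 6b, was highest in alveolar fibroblasts, alveolar macrophages, adventitial fibroblasts and dividing cells. In alveolar fibroblasts it was at 156, 151, 161 and 174 CPM, which was 34.0% ± 0.877 of the pair with Cox6b1. Adventitial fibroblasts had 84.0, 72.3, 64.0 and 81.2 CPM (21.9% ± 2.65) and alveolar macrophages 85.3, 67.4, 78.9 and 92.3 CPM (10.3% ± 1.70). Dividing cells had 74.4, 53.3, 70.8 and 96.6 CPM (11.1% ± 3.17). The range of the alveolar fibroblasts did not overlap the other gates named, which overlapped each other in CPM. Interstitial macrophages (10.7 CPM) and myofibroblasts (12.7 CPM) were low. T cells were at 2.87 CPM. All 4 were called above the mean of the other gates (edgeR), by 3.55 ± 0.12 log2 in alveolar fibroblasts, 2.53 ± 0.13 in adventitial fibroblasts, 2.83 ± 0.11 in alveolar macrophages and 2.42 ± 0.19 in dividing cells (largest adjusted p = 2.27e-19).

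Cox8b (chr7:140898945-140900446, GRCm38, - strand, protein-coding) was almost restricted to alveolar fibroblasts at a low level, 29.6, 39.9, 35.2 and 16.0 CPM, with 73.9% of its gated UMIs there. It made up 4.45% ± 1.62 of the pair with Cox8a. Cox7a1, the muscle form of subunit 7a, was at 8.14, 8.30, 12.2 and 8.63 CPM in alveolar macrophages, 1.97% ± 0.239 of its pair with Cox7a2. In smooth muscle, no muscle form led its pair: Cox6a2 had 13 UMIs in WT replicate 2 and 0 in the other 3 libraries, and Cox8b had 0 UMIs. The 3 genes for the c subunit of complex V, whose mature proteins are the same, varied in share. Atp5g2 made up 51.6% ± 2.68 of their UMIs in migratory dendritic cells and 48.4% ± 2.33 in B cells, but 29.7% ± 2.65 in adventitial fibroblasts. Atp5g1 was at 15.9% ± 2.32 in migratory dendritic cells and 29.9% ± 2.30 in adventitial fibroblasts, with no overlap between the gates in either gene.

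The start regions of these genes were read from RefSeq (GRCm38.p6), 250 bases before to 50 bases after a start, for the 72 of 88 members that the table holds. On both strands, CCGGAAG (the core bound by ETS factors such as GABPA) was in 27.8% of the 72 member genes and 9.93% of 27025 genes. CGCATGCG (the NRF1 core) was in 12.5% against 2.07%, AAGATGGCG (the YY1 core) in 9.72% against 1.64%, and ACGTG (the hypoxia response core) in 25.0% against 21.8%. Over all 32851 start regions of this length the shares were 8.86%, 1.87%, 1.40% and 19.6% in that order. The last letters of the ETS core can overlap the first of the YY1 core. Matches describe letters and not bound sites. The 2 pairs below are shown because a broadly expressed form and a form limited to few gates can be set side by side. They are 2 of 4 such pairs in the table; in the others, Cox7a2 with Cox7a1 and Cox7b with Cox7b2, the broad form held none of the 4 motifs, and Cox7a1 held the hypoxia core. So the ETS core does not separate broad from tissue forms over the 4 pairs. Capitals mark the ETS core (CTTCCGG on the strand shown) in the broad forms, and the hypoxia core in Cox8b. Cox8a lies at chr19:7217567-7217866, Cox8b at chr7:140900397-140900696, Cox6b1 at chr7:30626065-30626364 and Cox6b2 at chr7:4753045-4753344, all read from the - strand.
Cox8a: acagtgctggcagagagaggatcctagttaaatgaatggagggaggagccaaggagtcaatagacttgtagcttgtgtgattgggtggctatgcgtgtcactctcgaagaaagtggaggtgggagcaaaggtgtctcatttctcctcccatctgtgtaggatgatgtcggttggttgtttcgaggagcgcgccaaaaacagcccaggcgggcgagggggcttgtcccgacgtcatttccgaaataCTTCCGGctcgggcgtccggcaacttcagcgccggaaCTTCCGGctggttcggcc
Cox8b: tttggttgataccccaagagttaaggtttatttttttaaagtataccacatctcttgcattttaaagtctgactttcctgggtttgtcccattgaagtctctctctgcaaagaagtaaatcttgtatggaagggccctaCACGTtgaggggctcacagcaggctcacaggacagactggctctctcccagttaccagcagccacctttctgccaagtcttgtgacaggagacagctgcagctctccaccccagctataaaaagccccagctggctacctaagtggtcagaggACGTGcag
Cox6b1: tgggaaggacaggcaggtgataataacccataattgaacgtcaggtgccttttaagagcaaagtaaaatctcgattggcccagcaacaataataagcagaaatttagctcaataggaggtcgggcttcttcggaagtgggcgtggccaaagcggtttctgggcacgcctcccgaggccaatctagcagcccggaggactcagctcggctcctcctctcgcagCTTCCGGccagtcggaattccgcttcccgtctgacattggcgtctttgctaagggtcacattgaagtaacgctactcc
Cox6b2: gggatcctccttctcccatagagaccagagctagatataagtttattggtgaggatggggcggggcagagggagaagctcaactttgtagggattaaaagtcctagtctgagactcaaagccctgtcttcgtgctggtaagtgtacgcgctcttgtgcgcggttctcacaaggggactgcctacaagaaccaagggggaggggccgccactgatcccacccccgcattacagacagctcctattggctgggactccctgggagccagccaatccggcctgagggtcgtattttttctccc
Cox8a held the ETS core 2 times and Cox6b1 1 time. Neither Cox8b nor Cox6b2 held the ETS, NRF1 or YY1 letters in this window, and Cox6b2 held none of the 4 motifs. Cox8b held the hypoxia core 2 times.

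Between genotypes, no member was called by edgeR in the whole lung or in any of the 20 tested gates. In the whole lung 86 of 88 members passed the filter on low counts; 81 had a negative and 5 a positive log2 fold change of GAL over WT, with a median of -0.18 against 0.01 for all 16831 genes tested. None of those genes was called (0%), and 4 members had an unadjusted p under 0.05, beside 1045 of all genes. For 33 members both GAL libraries lay below both WT libraries, as they did for 16.4% of all genes; for 3 they lay above, as for 18.9% of all genes. With 2 libraries a group an exact permutation test of 1 value cannot give p below 0.333. The median rested on 1 library: without WT replicate 1 it was -0.01, and without WT replicate 2 it was -0.35.

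Within gates the median was negative in 18 of the 20 gates, from -0.24 in type 1 dendritic cells upward, and positive in ciliated cells (0.23) and smooth muscle (0.01). With library totals as the scale all 20 medians were negative, the ciliated one at -0.01. Without WT replicate 1, 9 of the 20 medians were positive. The summed level was lower in both GAL libraries than in both WT libraries in 10 gates, for example in NK cells at 1.97% and 1.76% against 2.20% and 2.11%. In alveolar macrophages the groups overlapped, at 2.15% and 2.31% against 2.70% and 2.12%. Genes of any kind were called in only 4 gates: 0.453% in nonclassical monocytes, 0.127% in myofibroblasts, 0.0549% in general capillaries and 0.0220% in migratory dendritic cells; in the others 0% were.

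**Figure D4:**
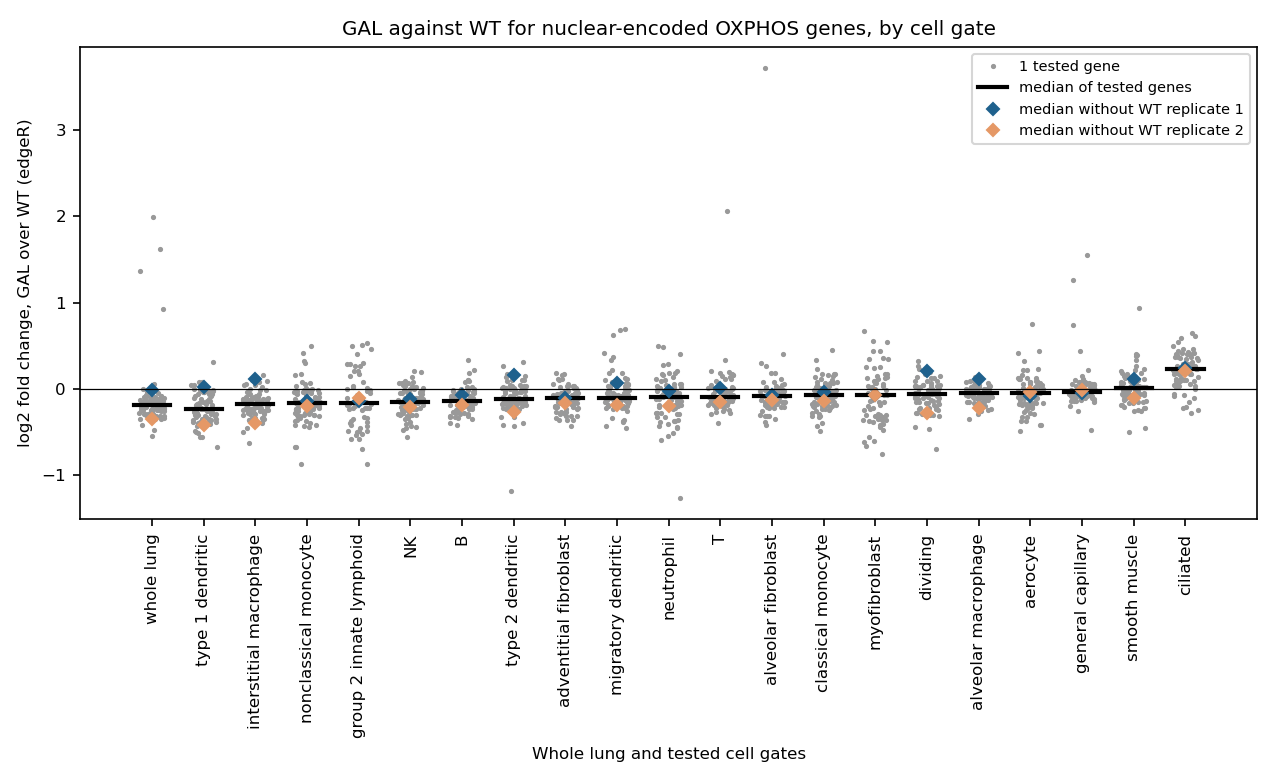
log2 fold change of GAL over WT (y axis, edgeR) for each tested member (grey points) in the whole lung and the 20 tested gates (x axis); black bars are medians, and diamonds are medians without WT replicate 1 (blue) or without WT replicate 2 (orange). The whole-lung bar is at -0.18, with the blue diamond at -0.01 and the orange one at -0.35.

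In the gates with many cells, the members with the smallest p were mostly lower in GAL, and none passed. In neutrophils Ndufb5, a complex I membrane subunit, was at 15.3 and 22.3 CPM in GAL and 62.2 and 42.1 CPM in WT (log2 -1.26 ± 0.34, adjusted p = 1.00, edgeR). Uqcrq, a small complex III subunit, was at 191 and 189 CPM against 316 and 272 CPM in the same gate. In NK cells Ndufa4 was at 419 and 378 CPM against 558 and 585 CPM, and Ndufb11 at 266 and 275 CPM against 415 and 356 CPM. In B cells Cox6a1 was at 317 and 294 CPM against 438 and 385 CPM, and Ndufs7 at 54.8 and 67.8 CPM against 85.5 and 83.4 CPM. These members were chosen by their p, so the separation of their groups is no further evidence. In alveolar macrophages Ndufa8 was at 91.3 and 92.2 CPM against 115 and 113 CPM, and Sdhaf2, an assembly factor that attaches FAD to Sdha, at 33.3 and 27.1 CPM against 34.3 and 40.9 CPM. In interstitial macrophages Ndufv1, the NADH-binding subunit, was at 26.0 and 26.1 CPM against 41.6 and 33.6 CPM, and Atp5o at 123 and 138 CPM against 213 and 153.5 CPM. In adventitial fibroblasts Ndufb7 was at 110 and 105 CPM against 156 and 132 CPM, and Ndufs7 at 99.1 and 99.6 CPM against 124 and 130 CPM. In alveolar fibroblasts Ndufc2 was at 144 and 148 CPM against 193 and 196 CPM. Sdhaf1 in T cells was at 44.2 and 30.5 CPM against 48.8 and 48.6 CPM.

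In the whole lung, 3 members with the smallest p were higher and 3 lower in GAL. Sdhaf1 was at 25.3 and 25.3 CPM against 29.8 and 36.8 CPM, Sdhaf2 at 26.7 and 22.9 CPM against 27.8 and 32.7 CPM, and Sdhd at 60.3 and 63.1 CPM against 78.7 and 73.8 CPM. Cox4i2 was at 21.0 and 18.3 CPM in GAL and 2.67 and 7.24 CPM in WT (log2 1.99 ± 0.45, adjusted p = 0.716, edgeR). Ndufa4l2 was at 11.2 and 9.12 CPM against 1.92 and 4.69 CPM (1.62 ± 0.42, adjusted p = 0.716). Cox8b was at 4.09 and 2.16 CPM against 1.36 and 0.980 CPM (1.36 ± 0.42, adjusted p = 0.716). DESeq2 called Cox4i2 (log2 1.96 ± 0.45, adjusted p = 0.0122) among the 0.212% of genes it called.

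Pericyte numbers and markers were higher in the same libraries as Cox4i2 and Ndufa4l2. The pericyte gate held 0.465% and 0.270% of kept cells in GAL and 0.105% and 0.170% in WT. All 14 pericyte markers were detected in every whole-lung sum, and together they were at 152 and 115 CPM in GAL and 39.9 and 70.0 CPM in WT. Within the pericyte gate Cox4i2 differed by 0.34 ± 0.45 log2 between genotypes (95% interval -0.59 to 1.27, adjusted p = 1.00, edgeR) and Ndufa4l2 by 0.34 ± 0.40, with GAL and WT libraries overlapping. Without the cells that held 3 or more pericyte markers, the whole-lung difference was 1.08 ± 0.49 for Cox4i2 and 0.80 ± 0.52 for Ndufa4l2. In a sum over cells, more pericytes and more RNA per pericyte cannot be told apart. Cox4i2 was also higher in the T gate of GAL, at 4.27 and 1.71 CPM against 0.584 and 0.775 CPM (23, 11, 3 and 5 UMIs), where 12, 11, 8 and 9 of the 14 pericyte markers had a UMI. Their summed level in that gate was 13.2 and 8.88 CPM in GAL and 9.14 and 9.29 CPM in WT, which overlapped.

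In general capillaries Cox4i2 was at 66.7 and 130 CPM in GAL and 24.8 and 42.1 CPM in WT (log2 1.545 ± 0.30, adjusted p = 0.0878, edgeR), and Ndufa4l2 at 28.4 and 50.5 CPM against 12.4 and 19.9 CPM (1.26 ± 0.30, adjusted p = 0.156). DESeq2 called Cox4i2 (adjusted p = 0.0285) among 0.112% of genes. Cells with at least 3 pericyte markers made up 3.73% and 9.13% of this gate in GAL and 2.51% and 2.33% in WT, and Cox4i2 was at 252 to 906 CPM in them. In the cells with 0 pericyte markers Cox4i2 was at 7.36 and 8.65 CPM in GAL and 9.33 and 6.66 CPM in WT, a difference of 0.04 ± 0.40. There the groups overlapped, and the level was above the 0.584 to 4.27 CPM of T cells. In alveolar fibroblasts Cox4i2 had 37 and 33 UMIs in GAL and 0 and 3 in WT (8.24, 25.8, 0 and 2.09 CPM; adjusted p = 0.462), and the summed pericyte markers there were at 131 and 250 CPM against 118 and 136 CPM.

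**Figure D5:**
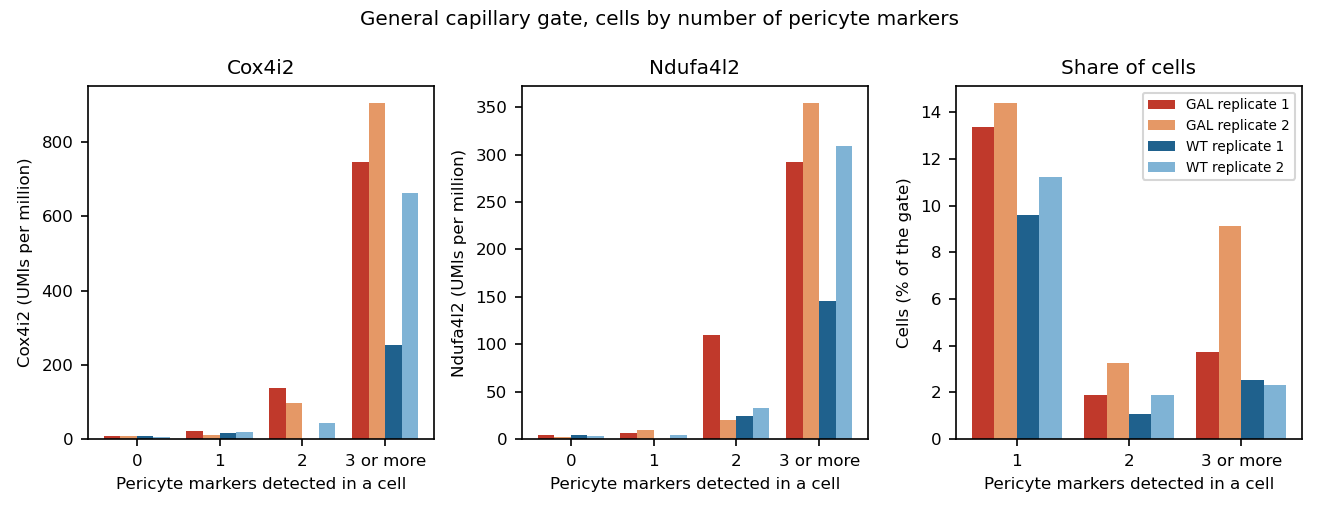
General capillary gate split by the number of pericyte markers detected in a cell (x axes): Cox4i2 and Ndufa4l2 in CPM (left and middle) and share of cells of the gate in percent (right, cells with 0 markers left out), with 1 bar per library. Both genes are high only in cells with more markers, and such cells were 9.13% of the gate in GAL replicate 2.

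In the gates where they were highest, the other tissue forms were not called between genotypes. Cox6a2 in alveolar type 2 cells differed by 0.10 ± 0.28 log2 (95% interval -0.50 to 0.70), Cox6b2 in alveolar fibroblasts by -0.12 ± 0.19 (-0.54 to 0.29) and in alveolar macrophages by -0.11 ± 0.12 (-0.42 to 0.20), and Cox8b in alveolar fibroblasts by 0.40 ± 0.35 (-0.36 to 1.16). The intervals leave room for differences of that size, and a missed threshold does not show equal levels. Alveolar fibroblasts, which held most Cox8b UMIs, numbered 791 and 233 cells in GAL and 301 and 291 in WT; the part of cell number in the whole-lung Cox8b values was not tested.

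The 13 mitochondrially encoded subunits ran the other way. In the whole lung all 13 had a positive log2 fold change, with a median of 0.28, and none was called. Their summed share was 2.45% and 2.40% of UMIs in GAL and 1.99% and 1.84% in WT, and both GAL libraries lay above both WT libraries in 19 of the 20 tested gates, all but the ciliated gate. The ratio of the nuclear sum to the mitochondrial sum was accordingly 0.729 and 0.789 in GAL and 1.15 and 1.01 in WT. This ratio differed widely between gates too, from 0.563 ± 0.113 in B cells to 1.97 ± 0.435 in neutrophils. The share of mitochondrial RNA also moves with cell handling and with the median UMIs per cell, which were 3713 and 2842 in GAL and 2361 in both WT libraries; their part in the result was not tested.

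In the whole lung no gene of the other pathway lists was called. Complex assembly factors had 36 of 44 negative values (median -0.15), regulators of mitochondrial biogenesis and mitochondrial DNA expression 13 of 15 (-0.15), and citrate cycle enzymes 14 of 17 (-0.10). All 5 subunits and carriers outside the name rule were negative (-0.32), and the hypoxia and pericyte genes had 4 of 10 negative. Of all 16831 tested genes 50.9% were positive, with a median of 0.01. These list values include WT replicate 1, the library on which the whole-lung median of the members rested. Over gates, the citrate cycle enzymes and the assembly factors were highest in ciliated cells (1500 and 2720 CPM in sum), and citrate cycle enzymes lowest in neutrophils (438 CPM).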

How the data were processed

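The authors deposited UMI count matrices of 2 GAL and 2 WT lung libraries, with 32285 genes each. Per the submitters' processing notes, fastp, STAR and Seurat were used with the GRCm38/mm10 genome; versions, settings and the gene annotation are not given in the sources used here. Gene positions come from GENCODE M21 for GRCm38.

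Cells with at least 500 UMIs, 300 genes and at most 20% mitochondrial UMIs were kept, and the cells with the highest Scrublet scores (scanpy 1.11.5) were removed at 0.8% per 1000 cells. A cell entered the type with the largest share of its markers detected, with at least 3 markers and 10 percentage points over the next type. Counts were summed per library and gate. They were tested with edgeR 4.0.16 (filterByExpr, TMM, quasi-likelihood test, Benjamini-Hochberg over all genes, adjusted p threshold 0.05), GAL against WT without a block, and each gate against the mean of the others with the library as block. The ± after a log2 fold change is its standard error. DESeq2 1.42.0, library totals without TMM, no filter, other cell filters, thinned cells and each library left out were alternatives. The scripts were tested on simulated data.

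Named are the isoform pairs, the 6 members with the smallest p in the whole lung and 2 in each gate with at least 200 cells per library, the 10 with the largest ratio of highest to median gate, and the highest and lowest per complex. The members and lists were chosen with earlier results of these data known. The pericyte, alveolar type 2 and venous endothelial gates and the splits by pericyte markers were added after seeing the data. Reads of genes with processed pseudogenes may be split or lost in counting, so differences in level between such genes are uncertain. Exact intervals of shares cover counting error only. The intervals of log2 fold changes come from the edgeR fit and include the spread between libraries.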

Additional observations from a re-analysis of the deposited data

Results flagged for a closer look

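The summed level of the 88 genes was lower in both GAL libraries than in both WT libraries in 10 tested gates and in the small venous endothelial gate, and higher in the pericyte gate; that the gates differ from each other was not tested. As log2 of the GAL mean over the WT mean, the sum was at -0.207 in NK cells, -0.163 in group 2 innate lymphoid cells, -0.167 in B cells, -0.133 in classical monocytes, -0.253 in nonclassical monocytes and -0.259 in neutrophils. It was at -0.137 in aerocytes, -0.134 in venous endothelial cells, -0.0914 in alveolar fibroblasts, -0.0973 in adventitial fibroblasts and -0.114 in myofibroblasts. In pericytes, with 13 to 51 cells per library, it was at 0.0756. With 2 libraries a group, no exact test of such a sum can pass 0.05.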

How the results depend on the processing

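No paired analysis was possible because the labels name no pairs of GAL and WT libraries. With DESeq2, 1 member was called in the whole lung (Cox4i2) and 1 over the gates (Cox4i2 in general capillaries), against 0 with edgeR. Without the filter on low counts 4 were called over the gates. They were Cox4i2 and Ndufa4l2 in general capillaries, Cox4i2 in alveolar fibroblasts and Cox6a2 in smooth muscle. Cox6a2 had 13 UMIs in WT replicate 2 of that gate and none in the other libraries. The share of all genes called in that setting is not given here. Leaving out 1 library leaves a group with 1, so only sizes are given. In general capillaries Cox4i2 differed by 1.90 log2 without GAL replicate 1 and by 1.03 without GAL replicate 2. The whole-lung median of -0.18 lay between -0.35 (without WT replicate 2) and -0.011 (without WT replicate 1). With library totals in place of TMM, 38 members were higher in type 2 dendritic cells (all genes 17.1%). Lower were 11 in general capillaries (all genes 10.85%), 25 in alveolar fibroblasts (13.9%) and 32 in myofibroblasts (8.29%). In adventitial fibroblasts 30 to 44 were lower with 1 library left out, against 59. With mitochondrial and ribosomal protein genes out of the total, the summed level was 3.18% in smooth muscle and 2.49% in the whole lung. With doublets kept, Cox6b2 was 32.6% of its pair in alveolar fibroblasts. Of 243 values of named members under the alternatives, 235 kept their side of the threshold. The rest passed it, all for Cox4i2 or Ndufa4l2, and some of them with 1 library left out. Of 200 gate medians 177 moved by less than the spread. Gates of 13 to 59 cells limit the pericyte and alveolar type 2 values in the WT libraries. In GAL replicate 2 these gates held only 29 and 15 cells.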
